A study of Mus musculus with 6 samples.

Results

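The comparison described here sets C2C12 myoblasts at day 0 of differentiation medium against the same line in growth medium. C2C12 is a mouse muscle cell line, here obtained from ATCC and kept within 5 passages; it grows as single myoblasts and forms multinucleated myotubes when serum is lowered. The growth medium array (labelled C2C12-GM) came from cells in DMEM with 10% fetal bovine serum, before any change of medium. The day 0 array (C2C12-day0) came from cells that had reached confluence and had been switched to DMEM with 2% horse serum. These are 2 of the 6 arrays of the series; the other 4 are parental cells at day 2 and day 4 and 2 stable transfectants at day 0, selected in G418, with a hairpin against Rp58 or a control that the labels call both a LacZ vector and a control hairpin. No parental sample carries a transgene. The labels give neither the density of the growth medium culture nor the time between the change of medium and the harvest, so cell density, medium and time in culture cannot be told apart.

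The members are all genes read by a probe set with exactly 1 gene symbol, each gene standing on its probe set with the highest mean over the 6 arrays. There are 18194 such genes, of which 13242 reached 7.95, the median of all deposited values, on at least 1 of the 6 arrays and are counted below; the other 4952 are not. Each difference is the log2 value at day 0 minus that in growth medium, less 0.02, the median difference of all 18194 genes, so that 1 is a 2-fold and 2 a 4-fold difference. With 1 array a group there is no replicate and no test: every statement compares these 2 arrays and no p-value can be given. The robust standard deviation (scaled median absolute deviation) of the difference over the counted genes was 0.36, which describes genes and is no measurement error. In these bulk samples, more muscle RNA in each cell and more cells that have begun to differentiate cannot be told apart.

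As background, myogenesis in culture is driven by a small set of helix-loop-helix factors. MyoD and Myf5 hold the myoblast identity, and myogenin (Myog), with the Mef2 proteins, turns on the genes of the contractile apparatus once cells leave the cycle. MyoD-family proteins bind E-boxes, Mef2 proteins bind an A/T-rich site, and serum response factor binds the CArG box. Serum and low density sustain growth programmes such as ribosome production, replication and the actin-linked targets of serum response factor and of the Hippo pathway's effectors, and their withdrawal favours exit from the cycle.

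The promoters below are shown because they belong to genes far apart between the 2 arrays and carry the sites just named or, for Serpinb2, other sites that were searched for. Each line gives the 250 bases before the annotated start of the gene, 5′ to 3′ on the gene's strand, from RefSeq (GRCm38.p6), with the matches in capitals. In the lines of Klhl41, Chrng and Mylpf the capitals are the E-boxes CAGCTG and CAGGTG (either strand) and, in Klhl41, also a Mef2 motif; in Actc1 they are a CArG box, and in Serpinb2 an AP-1 site (TGANTCA) and a TATA box (TATAAA).
Klhl41, chr2:69669870-69670119, plus strand: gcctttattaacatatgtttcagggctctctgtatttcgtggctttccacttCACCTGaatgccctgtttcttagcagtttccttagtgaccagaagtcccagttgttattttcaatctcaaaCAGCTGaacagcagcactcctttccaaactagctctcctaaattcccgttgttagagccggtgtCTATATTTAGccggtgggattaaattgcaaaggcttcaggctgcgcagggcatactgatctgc
Chrng, chr1:87205561-87205810, plus strand: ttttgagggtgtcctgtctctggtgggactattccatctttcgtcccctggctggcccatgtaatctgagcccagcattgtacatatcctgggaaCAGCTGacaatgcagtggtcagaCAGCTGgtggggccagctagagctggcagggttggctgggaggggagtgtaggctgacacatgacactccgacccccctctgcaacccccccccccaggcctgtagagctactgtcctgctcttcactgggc
Mylpf, chr7:127211358-127211607, plus strand: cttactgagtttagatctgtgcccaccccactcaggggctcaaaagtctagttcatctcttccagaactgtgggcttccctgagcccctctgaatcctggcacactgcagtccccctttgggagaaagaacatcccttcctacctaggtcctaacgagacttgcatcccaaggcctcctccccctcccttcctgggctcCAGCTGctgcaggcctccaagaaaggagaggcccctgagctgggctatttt
Actc1, chr2:114052876-114053125, minus strand: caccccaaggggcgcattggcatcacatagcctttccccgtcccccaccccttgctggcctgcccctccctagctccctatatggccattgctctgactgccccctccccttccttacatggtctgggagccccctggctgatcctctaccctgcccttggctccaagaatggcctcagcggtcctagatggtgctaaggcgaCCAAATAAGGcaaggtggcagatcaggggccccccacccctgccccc
Serpinb2, chr1:107511173-107511422, plus strand: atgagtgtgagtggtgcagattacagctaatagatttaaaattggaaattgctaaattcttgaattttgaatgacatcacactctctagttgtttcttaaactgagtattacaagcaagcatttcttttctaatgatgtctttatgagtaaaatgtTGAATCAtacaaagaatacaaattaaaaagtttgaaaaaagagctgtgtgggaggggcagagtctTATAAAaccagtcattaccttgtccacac
Klhl41, a sarcomere-stabilising protein, has CAGGTG at -198, CAGCTG at -127 and the Mef2 motif at -63 from the start. Chrng, the fetal acetylcholine receptor subunit, has CAGCTG at -155 and -132, and Mylpf, the fast regulatory light chain, at -51. These genes were higher at day 0 (3.47, 2.52 and 3.20). Serpinb2, the plasminogen activator inhibitor 2, was lower (-2.06).

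Over all counted genes the step was lopsided. At day 0, 403 genes (3.04% of those counted) were at least 2-fold apart. Of these 356 were the higher ones (2.69% of counted genes) and 47 the lower ones (0.355%). Differences of 4-fold were found for 51 genes upwards and 2 downwards, and of 8-fold for 14 upwards and 0 downwards. Of the 356 genes, 52 belong to the 8 muscle lists used here, which hold 161 counted genes, so 32.3% of those lists was 2-fold higher. The other 304 genes, most of the higher ones, are not in any muscle list. The 3 genes just inside the upper threshold were Capn3, AA467197 and Ift81 (1.004, 1.004 and 1.001), and Ypel5, Car8 and Fam53b lay just outside it (0.9997, 0.9989 and 0.9989). On the lower side Egfbp2, Ppp1r1c and Cdkl4 (-1.01, -1.01 and -1.02) were just inside, and 4930528A17Rik, Slc8a1 and Edn1 (-0.99, -0.98 and -0.97) just outside.

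The difference also moved with level. In 5 equal groups of genes by mean level, its median ran from -0.09 in the dimmest and -0.01 in the next to 0.14, 0.17 and 0.16 in the 3 brighter groups. The deposited values of the day 0 array were wider spread than those of the growth medium array, with an upper quartile of 10.01 against 9.83 at like medians of 8.26 and 8.27. What part of any single difference follows from this was not tested; a loess correction for level gave 297 genes higher and 53 lower. Of the 356 higher genes, 77 read below 7.95 in growth medium, and of the 47 lower ones 13 did at day 0, so the sizes of those differences rest on a dim value.

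**Figure D1:**
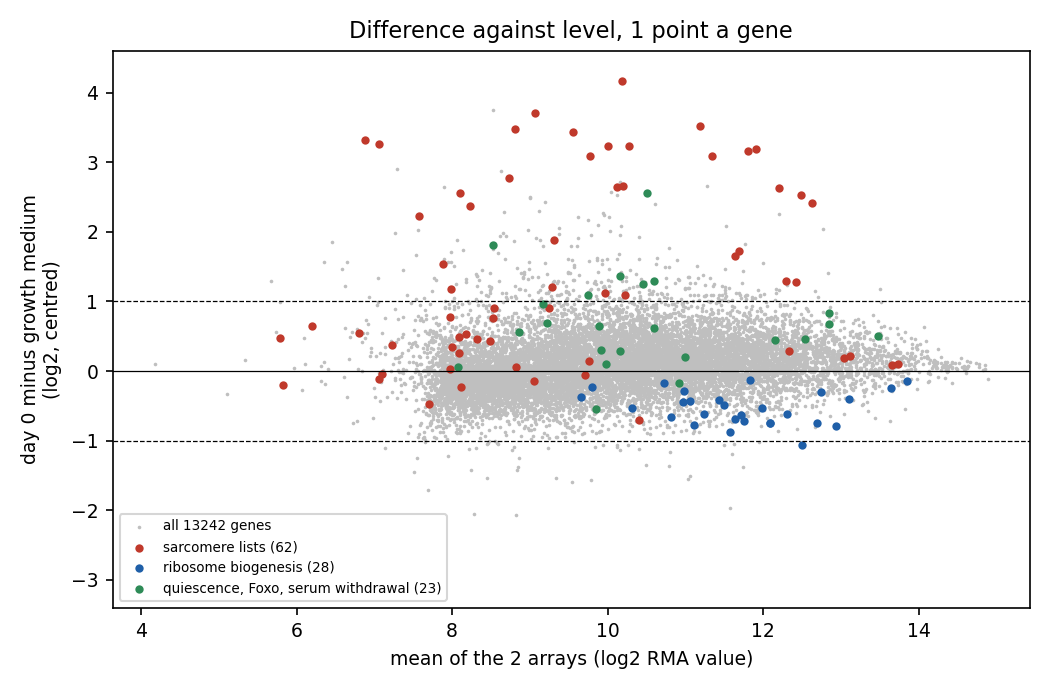
Difference between day 0 and growth medium (log2, centred on the median of all genes) against the mean log2 RMA value of both arrays, 1 point for each of 13242 genes. Dashed lines mark 2-fold; the 62 sarcomere genes (red) reach up to 4.16, and the 28 ribosome biogenesis genes (blue) all lie below 0.

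The contractile apparatus held the largest differences. Of 62 counted sarcomere genes from 3 lists, 32 passed 2-fold upwards and 0 downwards, against 2.69% of all genes, and their median was 1.11 against 0.07 for all genes. Of 18 thin filament genes 12 were 2-fold higher, with a median of 2.54. Of 17 myosin genes 7 were, with a median of 0.55; 10 of the 17 read below 7.95 on at least 1 of these arrays, and the median was 2.42 with a filter on the mean of both arrays and 3.09 with only genes at or above 7.95 on both. In the third list, 13 of 27 Z-disc, M-band and scaffold genes were 2-fold higher (median 0.78).

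Myh3, the embryonic myosin heavy chain, read 8.09 in growth medium and 12.27 at day 0, a 17.9-fold difference and the highest rank of all genes. It read 14.40 and 14.55 on days 2 and 4, and 13.09 with the control vector and 11.79 with the Rp58 hairpin. All 5 other arrays were thus above growth medium, though the stable lines were deposited on a lower scale. The other heavy chains were at different stages. Myh1, an adult fast chain, went from 7.33 to 10.13 (2.78) and its other bright probe set gave 2.83, and slow Myh7 went from 7.11 to 8.66 (1.53). Perinatal Myh8 (5.86 and 6.54) and adult fast Myh4 (5.54 and 6.04) stayed below 7.95 on both arrays, whereas at day 4 they read 12.39 and 11.64. Adult fast Myh2 passed 7.95 on none of the 6 arrays. Skeletal heavy chain genes are near copies of each other, and how much their probe sets share signal was not tested.

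Among thin filament genes, the troponins and actins held the large differences. The fast troponin C gene Tnnc2 climbed over the 4 parental arrays, reading 9.42, 12.96, 14.51 and 14.79 in time order (11.5-fold between the first pair). Slow troponin I, Tnni1, went from 9.79 to 12.90 and fast Tnni2 from 8.37 to 11.63 (3.09 and 3.23). The other bright probe set of Tnni2 gave only 1.35, so whether slow and fast forms differed by like amounts depended on the probe set. The skeletal and cardiac alpha-actins Acta1 and Actc1, the subunits of the thin filament itself, were 2.53 and 2.64 higher, and nebulin (Neb), its giant ruler protein, went from 7.20 to 10.93. Tropomyosins, which coat the filament, showed little difference on their brightest probe sets (Tpm1 0.08, Tpm2 0.19, Tpm3 0.11). The other bright probe sets of Tpm1 ran from -0.30 to 1.68, so its transcripts were not read alike by all of them.

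Scaffold genes varied widely. Unc45b, a myosin chaperone, read 5.42 in growth medium and 8.71 at day 0, and Trim63, the MuRF1 ubiquitin ligase, 5.22 and 8.56; both began below 7.95. Ldb3, a Z-disc scaffold also called Cypher, went from 8.36 to 10.26, and its other bright probe sets were higher too (0.81 and 0.98). Myom2, an M-band protein, was 2.66 higher, but its 3 other bright probe sets ran from -0.39 to 2.62. Alpha-actinin genes differed: Actn3 was 1.29 higher and Actn2, which read 7.94 and 8.22, only 0.26. The Z-disc gene Myoz1 was on the other side of 0 (-0.71) while its relative Myoz2 was 2.38 higher. Hjv, the hemojuvelin co-receptor, is in none of the lists but was among the 20 largest differences of genes at or above 7.95 on both arrays (7.97 and 10.42).

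Membrane systems of muscle were unevenly represented. Of 22 excitation-contraction and calcium store genes, 9 passed 2-fold upwards and 0 downwards (median 0.63), against 2.69% and 0.355% of all genes. Of these 22 genes 14 lay above 0, where 58.4% of all genes did. Sarcalumenin (Srl), a calcium-binding protein of the reticulum, went from 8.80 to 11.53, the calcium pump Atp2a1 from 8.74 to 11.34 and the release channel Ryr1 from 8.65 to 10.58, although another probe set of Ryr1 gave 0.19. The calcium buffers parted: Casq2 was higher (9.40 and 11.82) and Casq1 lower (10.11 and 9.23). The voltage sensor Cacna1s read 7.36 and 8.14, just past 7.95 at day 0.

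Among fusion genes a few differed strongly and the rest little. Myomaker (Mymk), which lets myoblast membranes merge, read 9.94, 12.62, 13.99 and 14.40 on the same 4 arrays. Myomixer (Mymx), its micropeptide partner, read 6.63, 10.41, 12.24 and 13.08 and was 13.5-fold apart at the first step. Tmem182 was the only other of 24 counted fusion and surface genes past 2-fold (2.48), while 23 of the 24 lay above 0. Their median level of 11.05 lies in the level group from 10.48 to 11.48, where 30.8% of genes lay below 0. Of 10 junction genes, 2 were 2-fold higher, against 2.69% of all genes. They were Chrng (8.84 and 11.39, with 3.69 on its other bright probe set) and the delta subunit Chrnd (1.41). The adult subunit Chrne read 6.44 and 6.75 and was not counted.

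Regulators of the muscle programme differed less than the contractile genes. Of 23 myogenic regulators and cofactors 3 were 2-fold higher and 0 lower (median 0.32), against 2.69% and 0.355% of all genes. Myog read 11.06 in growth medium and 13.34 at day 0, then 14.33 and 14.48 on days 2 and 4. The day 0 value lay nearer to the later days than to growth medium. Rbm24, an RNA-binding splicing regulator of muscle, went from 8.50 to 10.74, with other bright probe sets from -0.36 to 1.78. Mef2c was 1.57 higher, but 0.19 to 1.28 on its 4 other bright probe sets and no longer 2-fold with the mean of its probe sets. MyoD (Myod1) read 12.45 and 12.80 and Myf5 11.11 and 11.21, centred differences of 0.32 and 0.08, where the 75th percentile of all genes was 0.32. Rp58 (Zbtb18), the repressor that gives the series its hairpin, read 11.18 and 11.88, a centred difference of 0.68 that did not reach 2-fold. The 12 counted inhibitors of the myogenic factors had a median of 0.43, and 7 of them lay above the 75th percentile of all genes. Among these were the zinc finger repressors Zeb2 (0.94), Zeb1 (0.62) and Snai2 (0.55) and the deacetylase Hdac4 (0.54). The dominant-negative factors Id1, Id2 and Id3 differed by 0.10, -0.34 and -0.24. In that list only the class II deacetylase Hdac5 passed 2-fold (1.04). That call was lost with centring on the counted genes and after quantile and loess normalization. Of 20 muscle energy genes, 3 were 2-fold higher and 1 lower, against 2.69% and 0.355% of all genes. Their median was 0.23, against 0.07 for all genes. Creatine kinase Ckm, myoglobin Mb and the glycolytic mutase Pgam2 were 4.30-fold, 5.64-fold and 3.06-fold higher. With the mean of probe sets Ckm differed by 1.03 and Mb by 1.29 on the log2 scale. Pdk4, which restrains pyruvate oxidation, was lower (-1.16).

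**Figure D2:**
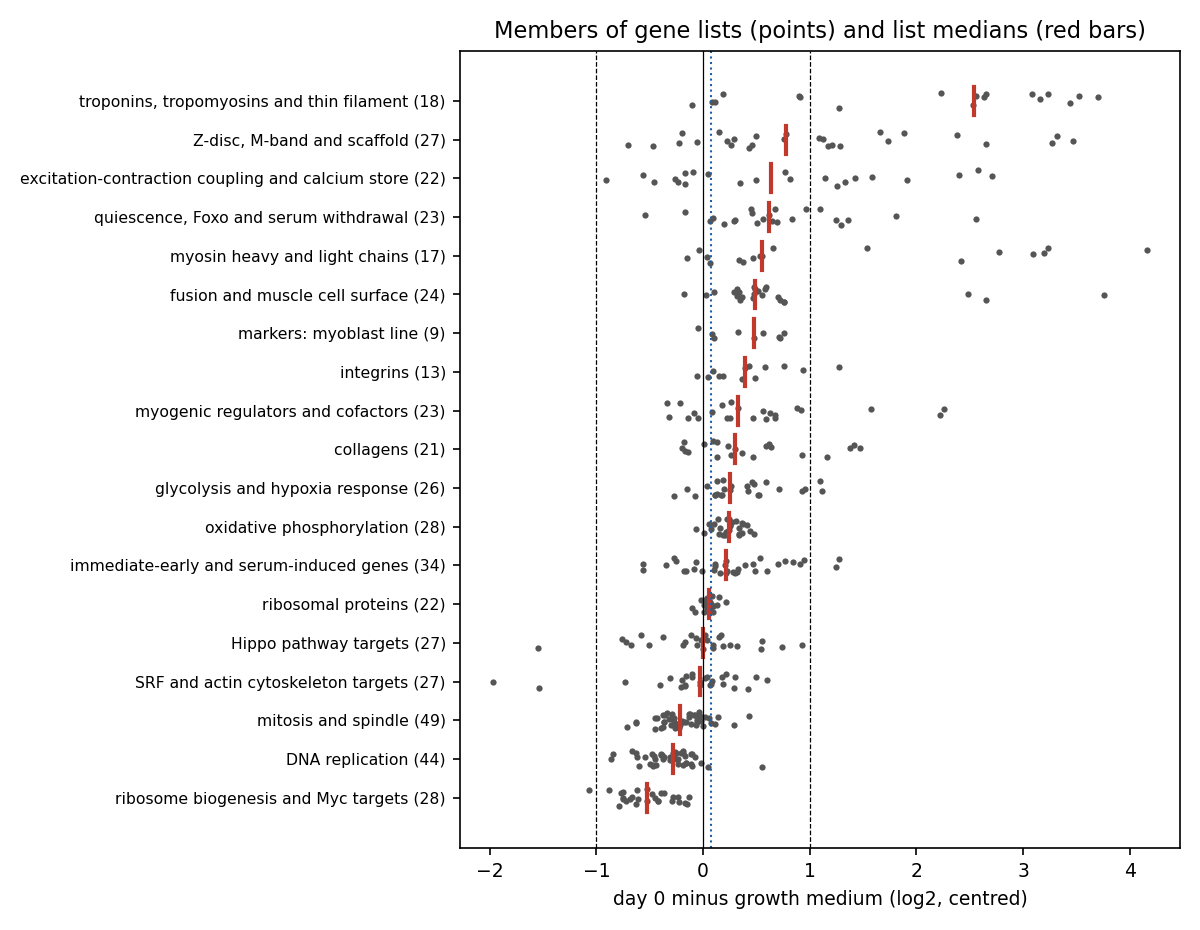
Centred log2 difference of every counted member (points, number in brackets) of 19 gene lists, with each list's median as a red bar; dashed lines mark 2-fold and the blue dotted line the median of all genes, 0.07. Thin filament genes lie farthest right (median 2.54) and ribosome biogenesis genes farthest left (median -0.53).

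Growth-linked genes were lower, mostly by less than 2-fold and by unequal amounts. All 28 ribosome biogenesis and Myc target genes lay below 0, where 41.6% of all genes did, and 26 of them lay below the 25th percentile of all differences. Their median was -0.53 and 1 of them, spermidine synthase (Srm, 13.02 and 11.98), was 2-fold lower. Next were dyskerin (Dkc1, -0.88), an RNA pseudouridine synthase, with -1.18 and -0.94 on its other probe sets, and the ribonucleoprotein Nhp2 (-0.79). Nop16 (-0.77), nucleostemin (Gnl3, -0.75), the box C/D protein Nop58 (-0.75) and ornithine decarboxylase (Odc1, -0.75) followed. Nearest to 0 were Bop1 (-0.13), nucleophosmin (Npm1, -0.15), Pes1 (-0.17), the polymerase I subunit Polr1a (-0.22) and nucleolin (Ncl, -0.24). The direction of this list's median held under each of the 10 alternatives run on it, from -0.69 to -0.50. Ribosomal protein genes did not show this pattern. Of 22, 19 lay above 0, where 58.4% of all genes did, but 0 lay above 0.32, the upper quartile of all genes. Their median of 0.05 was below the 0.07 of all genes and turned negative under 2 of the alternatives. Their median level of 14.35 lies in the brightest group of genes by level, where the median was 0.16 and 27.9% lay below 0. How much of the count above 0 follows from level was not tested. Values of these genes reached 14.59 and 14.65 on the 2 arrays, where the highest mean level of any counted gene was 14.89. Whether differences are compressed so near the top of the scale was not tested. Myc itself read 10.42 and 10.17.

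The cell cycle genes leaned the same way by less. Of 44 replication genes 42 lay below 0 (median -0.28), and of 49 mitosis genes 42 did (median -0.22), with 0 past 2-fold in both. Uracil glycosylase Ung (-0.87) and the origin protein Orc1 (-0.84) were lowest, and E2f2 (0.55) and the phosphatase Cdc25b (0.43) highest. Both medians kept their sign under the alternatives (replication -0.45 to -0.25, mitosis -0.35 to -0.19). Brakes on the cycle were mixed: Gadd45a, a stress-induced growth arrest gene, went from 9.81 to 11.46, 13.48 and 13.81, the only 2-fold member among 24. The CDK inhibitor Cdkn1a and the pocket proteins Rb1 and Rbl2 were 0.69, 0.86 and 0.86 higher. D cyclins parted, with Ccnd3 0.68 higher and Ccnd1 and Ccnd2 at -0.29 and -0.51.

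Genes tied to quiescence and to Foxo leaned upwards. Of 23 such genes, 6 passed 2-fold upwards and 0 downwards, and 21 lay above 0 (median 0.62), where 2.69% of all genes passed 2-fold upwards and 58.4% lay above 0. The list's median level of 10.16 lies in the level group from 9.56 to 10.48, where 34.9% of genes lay below 0. Selenoprotein P (Selenop), a secreted selenium carrier, read 9.22, 11.80, 12.96 and 12.83 from growth medium to day 4. Pik3ip1, an inhibitor of PI3 kinase, was 1.81 higher, with 1.63 on its other bright probe set. The atrogin ligase Fbxo32, the thioredoxin inhibitor Txnip and the sestrin Sesn1, a brake on mTORC1, were 1.36, 1.29 and 1.24 higher. Sesn1 was at 0.96 with the mean of its probe sets. The sestrin Sesn3 read 9.18 and 10.30. Foxo1 itself differed by 0.10, and Gas2 lay below 0 (-0.54) with another probe set at 1.45.

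Single serum and tension targets were among the lowest genes, although their lists as wholes were centred near 0. Transgelin (Tagln), an actin-bundling protein, read 12.55 in growth medium and 10.60 at day 0, then 11.23 and 11.70. Calponin (Cnn1) read 9.20, 7.69, 7.45 and 7.28, and gamma smooth muscle actin (Actg2) 11.95 and 11.24 over the first pair. Tagln and Cnn1 were the 2 of 27 counted SRF and actin genes past 2-fold; Acta2 (14.18 and 14.04) and Srf (11.35 and 11.34) hardly differed, and the list's median was -0.03. Ccn2, the connective tissue growth factor, read 11.80, 10.28, 10.94 and 11.77, so day 4 was back at the growth medium value. Its relative Ccn1 was at -0.76, with -0.66 to -0.59 on 3 other probe sets, and the LIM protein Ajuba and Amotl2 at -0.72 and -0.58. Ankrd1, a further Hippo target, differed by -0.18, and the median of 27 such genes was 0.00, with a sign that changed between alternatives.

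The lowest genes of all were Ccnb1ip1 (9.84 and 7.80), a ubiquitin ligase, and Serpinb2 (9.29 and 7.26), with Epop (8.53 and 6.85), a Polycomb-associated protein; all 3 ended below 7.95. Among genes at or above 7.95 on both arrays, Tagln was followed by Cyp2c54 (-1.59), 1700012B09Rik (-1.56), Ccn2 (-1.55), Dnm3 (-1.53) and Nrip2 (-1.51). Ifrd1, a transcriptional coregulator (12.41 and 11.06), the keratin Krt14 (9.52 and 8.17) and the cornified envelope gene Sprr1a (11.16 and 9.83) were also in that group, as was Shh (12.18 and 11.02). Krt14 was read by another bright probe set with a like difference (-1.77). Dnm3, Hoxa5 and Slc7a4 were not: their other bright probe sets gave -0.04, 0.12 and 0.18. The other bright probe sets of Nrip2 gave -0.31 and -0.10. The other probe set of Shh reached 7.95 on none of the arrays, so the level and difference given for Shh rest on its bright probe set alone. With the mean of probe sets Nrip2 (-0.63), Shh (-0.61), Hoxa5 (-0.61) and Slc7a4 (-0.13) were no longer 2-fold lower.

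**Figure D3:**
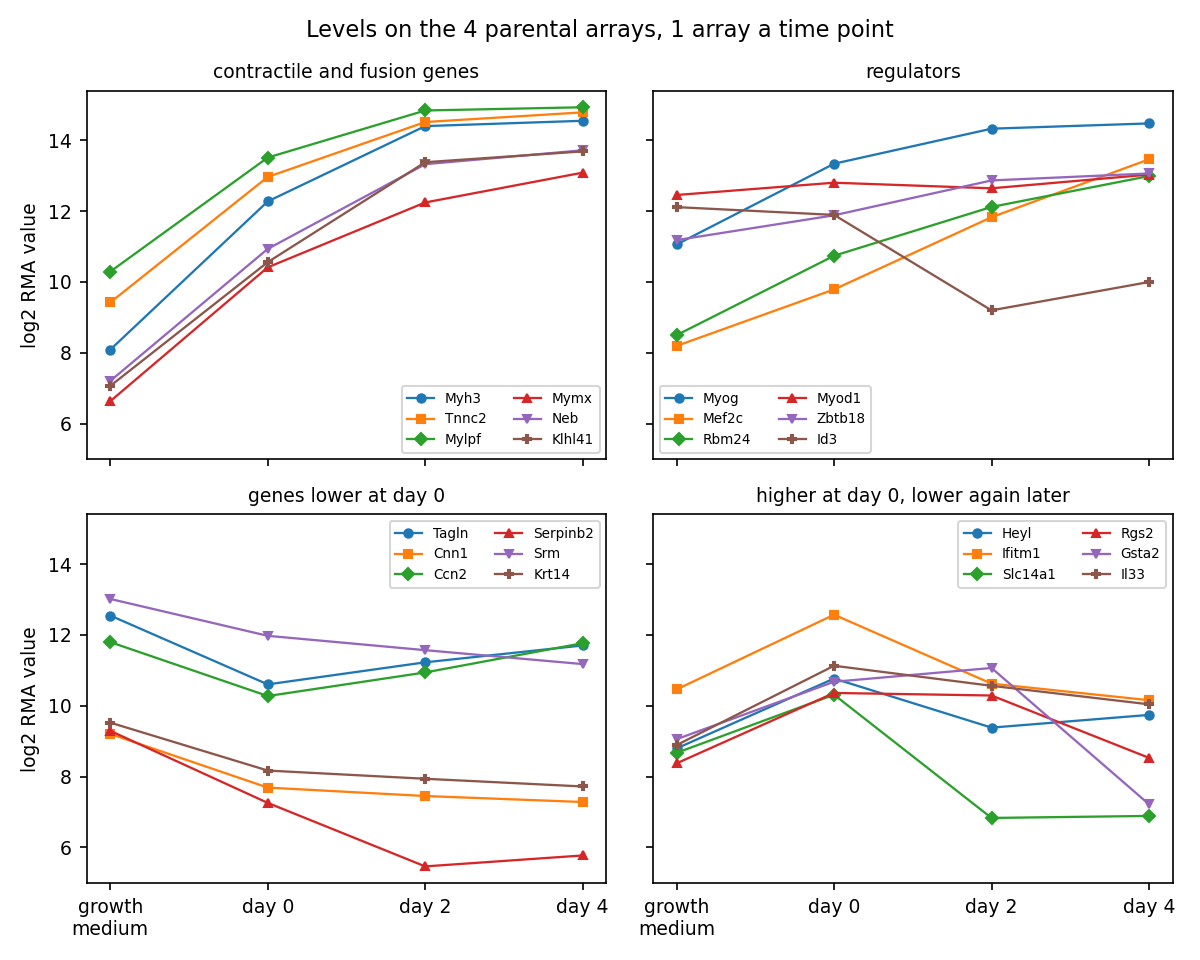
Log2 RMA value of 24 genes on the 4 parental arrays, 1 array a time point, in 4 panels of 6 genes. Myh3 and its panel climb from growth medium to day 4, Tagln and Ccn2 dip at day 0, and Slc14a1 and Gsta2 are high at day 0 and below growth medium at day 4.

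Matrix, signalling and surface genes made up part of the higher genes outside muscle. Of 21 collagens 4 were 2-fold higher and 0 lower, against 2.69% and 0.355% of all genes, the beaded-filament chains Col6a1 (10.76 and 12.26) and Col6a2 (10.52 and 11.93), basement membrane Col4a5 (1.41) and fibrillar Col1a1 (1.16). Osteoglycin (Ogn), a small leucine-rich proteoglycan, went from 10.85 to 12.69 and matrilin Matn2 from 9.59 to 11.22. The mesenchymal cadherin Cdh11 (1.39) and the integrin Itga4 (1.27), which pairs with integrin beta 1 to bind Vcam1 and fibronectin, were 2-fold higher. Of 13 integrins 12 lay above 0, against 58.4% of all genes. The integrins' median level of 10.70 lies in the level group from 10.48 to 11.48, where 30.8% of genes lay below 0. With the mean of probe sets Col1a1 (0.75) and Cdh11 (0.94) were no longer 2-fold higher. Of 18 Notch pathway genes 3 were 2-fold higher, against the same 2.69%: the Notch target Heyl read 8.80, 10.77, 9.38 and 9.74 in time order, and the receptor Notch3 read 11.60, 12.74, 11.93 and 11.60. Both were highest at day 0 among the parental arrays. Notch3 (centred difference 1.11) was no longer 2-fold higher after quantile (0.97) and loess (0.94) normalization. The Notch target Hey1 (1.02) lost its 2-fold call with centring on the counted genes and after quantile and loess normalization.

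Cytokine and growth factor genes were mixed. Il33, an alarmin cytokine, read 8.89 and 11.13, the receptor subunit Csf2rb 7.73 and 9.45, and hepatocyte growth factor (Hgf) 8.76 and 10.21, while Ccl2 and Csf1, attractant and growth factor of macrophages, were at -0.88 and -0.83. Pleiotrophin (Ptn) was 1.94 higher on its standing probe set and -0.14 on the probe set that was brightest over these 2 arrays, so its direction depended on the probe set. Gdnf, a neurotrophic factor, was 2-fold lower (10.36 and 9.30). The remaining lists held few genes past 2-fold. Over all counted genes 2.69% passed it upwards and 0.355% downwards. Among 34 immediate-early and serum-induced genes, 2 were 2-fold higher: Egr3, a zinc finger factor (9.18 and 10.48, but -0.09 on its other probe set), and Dusp6. Fos and Jun, the AP-1 subunits, read 8.74 and 9.53, and 12.35 and 12.76. Of 15 insulin-like growth factor genes, the binding proteins Igfbp4 (1.30) and Igfbp5 (1.18) were 2-fold higher; Igfbp5 gave 0.13 on its other probe set, and Igfbp4 was at 0.60 on the probe set brightest over both arrays. The gelatinase Mmp2 went from 10.38 to 11.60, with 1.41 on another probe set. Of 17 neuronal genes, the enolase Eno2 (7.26 and 9.01) and the microtubule protein Map2 (9.26 and 10.56) were 2-fold higher (Map2 only 0.63 with the mean of its probe sets) while the list's median was -0.16, a sign that turned with the mean of probe sets. Cystathionine lyase (Cth) was the only one of 25 amino acid stress genes past 2-fold, reading 9.32, 8.21, 7.46 and 10.01 in time order. In the cholesterol and fatty acid, interferon and Wnt lists 0 of 30, 0 of 22 and 0 of 27 genes passed 2-fold. Among 12 reference genes 0 did, and Gapdh read 14.44 and 14.64; the transferrin receptor Tfrc was the farthest from 0 (-0.86).

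Oxidative phosphorylation genes were all close together, with a maximum of 0.47 and a median of 0.24. Of 28, 27 lay above 0, where 58.4% of all genes did, and 9 lay above 0.32, the upper quartile of all genes. Their mean levels lie in the brightest group of genes by level, where the median was 0.16 and 27.9% lay below 0. Under the alternatives the list's median ran from 0.08 to 0.27. How much of it follows from level was not tested.

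Later steps that use other arrays give a view of the same genes. From day 2 to day 4, a pair of arrays that shares nothing with this comparison, 26 of the 356 genes higher at day 0 were at least 2-fold lower, 7.30%, against 0.733% of all genes, and 19 were at least 2-fold higher, 5.34%, against 0.831%. The 19 include Fgf21, a stress hormone (10.35 at day 0, 10.78 at day 2 and 13.20 at day 4), with Mef2c, Myh7, Lmod3 and Ckm. The 26 include the glutathione transferase Gsta2 (9.06 in growth medium, then 10.68, 11.07 and 7.22), Csf2rb (10.36 at day 2 and 7.26 at day 4), Hgf (10.34 and 8.74), the regulator of G-protein signalling Rgs2 (10.29 and 8.53) and lipoprotein lipase Lpl (13.28 and 11.84). These names outside the size rule and the lists were chosen after their values were seen. No muscle contractile gene is among those 26.

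The stable lines share no array with this comparison either. Between the Rp58 hairpin and the control, 324 of the 356 genes were lower with the hairpin (91.0%, against 53.9% of all genes), with a median of -0.42, and 50 were 2-fold lower (14.0%, against 0.634%). Of the 47 genes lower at day 0, 39 were higher with the hairpin (83.0%, against 46.1% of all genes), with a median of 0.24. Exceptions were few: the urea transporter Slc14a1, 1.62 higher at day 0, was 1.18 higher with the hairpin, and Dusp6, a phosphatase of ERK, 1.24 and 0.60. Tagln and Cnn1, lower at day 0, were lower with the hairpin too (-0.84 and -0.32).

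Genes with several probe sets allowed a limited comparison within the arrays. The genes were picked by their standing probe set, so smaller differences on the others are favoured by the choice itself. Of the 356 higher genes, 162 had at least 1 other probe set that reached 7.95 on some array. In 121 of these all other such probe sets lay above 0, and in 41 at least 1 other did not. In 73 at least 1 other was also 2-fold higher, in 46 all others were, and in 1 another was 2-fold lower. The like shares over all 5822 counted genes with other such probe sets were not computed, and 58.4% of all counted genes lay above 0. Of the 47 lower genes only 9 had another such probe set, and in 6 of them all lay below 0. Myl4, the atrial light chain, is a case of disagreement among the largest differences, at 3.09 on its standing probe set and -0.60 on the other; Tnni2, at 3.23 and 1.35, is one of agreement in sign. With the mean of probe sets the log2 differences of Myl4, Tnni2, Myh1, Rbm24, Ryr1, Myom2 and Ldb3 were smaller, at 1.26, 1.53, 1.68, 1.03, 1.06, 1.84 and 1.24, and each stayed past 2-fold.

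**Figure D4:**
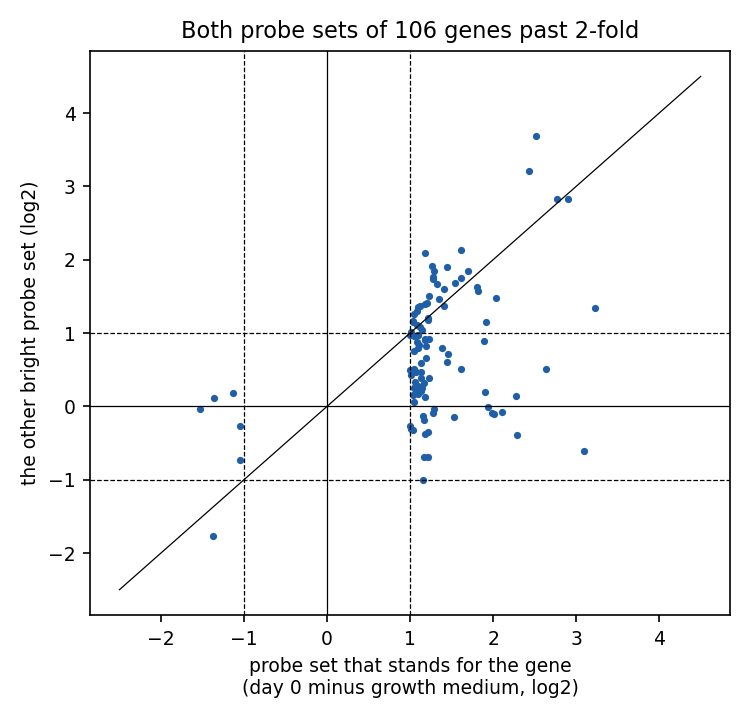
Centred log2 difference of the probe set that stands for a gene (x) and of its other bright probe set (y), for the 106 genes past 2-fold with exactly 1 other; the diagonal marks equal values and dashed lines 2-fold. In 21 genes the other probe set lies on the other side of 0, and in 78 its difference is the smaller. The genes were picked by the difference of the standing probe set, which by itself favours a smaller value on the other.

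Sites in the promoters of the higher genes were counted, as a description without a test. Windows of 300 bases (250 before and 50 after the start, both strands searched) were matched by symbol for 265 of the 356 genes. CAGCTG was in 22.6% of these windows, against 15.4% for all counted genes with a window and 16.1% for all 27025 genes of the table. Among the 39 higher genes of the muscle lists it was in 17 (43.6%), and among the other 226 in 43 (19%). Of the windows of all counted sarcomere genes, whether or not higher at day 0, 20 of 48 had it (41.7%). CAGGTG was in 18.1% of higher genes, 17.8% of counted genes and 20% of the table. The Mef2 motif was in 7.17% of higher genes, 1.86% of counted genes and 3.26% of the table. It was in 17.9% of the higher genes of the muscle lists and in 20.8% of all counted sarcomere genes. An E2F site (TTTCGCG) was in 0 of the 265 windows and in 1.55% of counted genes, while 6 of 36 replication genes had it. Of 34 windows of lower genes, 7 had an AP-1 site (20.6%), against 8.68% of higher genes, 5.28% of counted genes and 7.93% of the table. A TATA box was in 11 of the 34 (32.4%), against 13.6% of higher genes, 8.18% of counted genes and 14.2% of the table. Higher genes of the muscle lists had a TATA box in 28.2% and an AP-1 site in 10.3%. For all counted sarcomere genes these shares were 25% and 12.5%, so neither site was particular to the lower genes. The CArG box was in 1.89% of higher genes, 1.32% of counted genes and 12.5% of all counted sarcomere genes. Both sites are in the Serpinb2 promoter printed above. A match of letters is not a bound site.

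The myoblast markers Myod1, Myf5, Des, Cdh15, Itga7, Vcam1, Ncam1, Pax7 and Chrna1 read between 9.53 and 13.65 in growth medium and between 9.51 and 14.15 at day 0. The lowest of these values lie below those of some markers of other cell types given below, so level alone does not bear out the label of the line. Markers of other cell types gave no clear reading. Growth medium medians of the matched markers were 6.99 for endothelial and 7.82 for osteoblast and chondrocyte lists, but 8.21 for adipocyte, 8.94 for leukocyte and 8.95 for epithelial ones. Defining genes such as Pecam1, Vwf and Ptprc read 5.93, 4.94 and 5.58, and the fat cell markers Adipoq and Cidec 5.68 and 5.20. Others read well above 7.95 on both arrays, such as Epcam (11.86 at day 0), Csf1r (10.29 and 9.65) and Cd3e (10.29 and 9.75), so a value above 7.95 does not by itself mean that a gene is expressed. Of the 10 smooth muscle markers, 9 were counted and 2, Tagln and Cnn1, were 2-fold lower; Myh11, the defining one, read 7.14 and 6.99.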

How the data were processed

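The authors deposited log2 values made with the RMA algorithm on Affymetrix mouse whole-genome arrays, per the series' design text; the sources used here name neither the software version nor which arrays were processed together. RMA compresses differences of dim probe sets, and no detection calls were used. The table holds 45101 probe sets: 34958 with 1 gene in the platform annotation, 932 with several and 9211 with none or not listed there; only the first were named, and 34754 of them matched RefSeq by Entrez ID. Stable-line medians (7.15) lie below those of the parental arrays (8.26 to 8.27), so those arrays were compared only with each other. Day 4 minus day 2 and hairpin minus control were centred like the main difference.

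Of 1095 genes in 47 lists, 1025 matched, 15 by an older symbol, and 922 were counted. Named genes are the 20 largest and smallest differences at or above 7.95 on both arrays, the 10 largest and smallest of all counted, list members and Zbtb18. Members and lists were chosen with earlier results of these data known. The difference, loess (fraction 0.3) and quantile steps were tested on simulated data (Python 3.11.15, pandas 2.3.3, statsmodels 0.14.6). Alternatives covered filter, centring, normalization, probe set and fold.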

Additional observations from a re-analysis of the deposited data

Results flagged for a closer look

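Probe sets without exactly 1 gene symbol were outside the comparison. Of 4329 such probe sets that reached 7.95 on some array, 63 were past 2-fold upwards at day 0 (1.46%) and 18 downwards, a signal in data the comparison left out. The largest difference among them was 3.74, on a probe set that read 4.39 in growth medium and 8.16 at day 0, then 9.53 and 8.89.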

How the results depend on the processing

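No paired analysis was possible because each group holds 1 array, and no array could be left out. The counts of 356 genes higher and 47 lower became 1311 and 449 at 1.5-fold, and 29 genes were lower with the mean of a gene's probe sets (270 higher). The other settings gave 279 to 385 higher and 34 to 66 lower. Of the 356 and 47 genes, 294 and 47 were shared after centring on counted genes, 279 and 42 after quantile normalization and 276 and 39 after loess. The share higher among genes past 2-fold was 88.3%, and 81.7% after centring on the counted genes. The myosin list's median of 0.55 was 2.42 with a filter on the mean of both arrays and 3.09 with genes at or above 7.95 on both, because dim chains drop out. The excitation-contraction median of 0.63 was 1.20 without genes whose probe sets disagree in sign. The median of the inhibitor list (0.43) was -0.0254 with no filter, which adds 6 dim genes. Ptn turned to -0.14 with the brightest probe set of these 2 arrays. The other 476 of 480 list medians moved by less than 0.36. Of 122 named or listed genes past 2-fold, 93 stayed past it in every alternative that held them. The settings on both arrays and on agreeing probe sets were chosen after seeing the data. The number of arrays limits precision.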
